A study of Mus musculus with 6 samples.

Results

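Aminoacyl-tRNA synthetases were measured as a group of 36 genes among the 23420 gene symbols of the data, chosen by name: 20 genes of the cytosolic enzymes and 16 genes, with symbols ending in 2, of the mitochondrial ones. The RNA came from splenic B cells of 3 male MRL/lpr mice aged 5 to 7 weeks, a strain that carries the Fas lpr mutation and develops a lupus-like disease. All mice were Tlr9-/- with a wild-type Tlr7, so both groups share the deficiency, and mice with TLR9 are not analysed here. B cells were purified with beads by removing cells that carry CD43, CD4, CD8, CD11b, CD11c or Gr-1, and were kept in culture for 4 h, either unstimulated or with CL097, an imidazoquinoline agonist of TLR7, at 5 µg/ml. The libraries of a condition are numbered 1 to 3, and the comparison asks which synthetase transcripts changed when TLR7 was engaged. All values are log2 CPM, reads of a gene scaled to the library size (CPM) after quantile normalization, so each change is relative to the other transcripts of a library. They also carry a component shared by the libraries of a number, so levels, SD and overlaps of groups are not those of plain CPM.

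Each synthetase joins 1 amino acid to its tRNAs, and the charged tRNA then carries that amino acid to the ribosome. Animal cells have separate nuclear genes for most cytosolic and mitochondrial enzymes. Kars and Gars are exceptions, because each encodes the cytosolic and the mitochondrial form, and mitochondria make glutaminyl-tRNA by an amidotransferase route instead of a synthetase of their own. When charging falls behind, the kinase GCN2 senses uncharged tRNA and translation of the transcription factor ATF4 increases. ATF4 acts through amino acid response elements in the genes of many synthetases, amino acid transporters and amino acid synthesis enzymes. In B cells, activation is known to be followed by growth and a rise in protein synthesis.

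A library had 10906 to 10997 genes at 1 CPM or more, and sequencing depth is unknown. Markers of B cells were abundant in every library, with a summed level of the 6 genes between 5812 and 6671 CPM in the unstimulated and between 2339 and 2838 CPM in the CL097 libraries. Of these 6 genes 4 were called lower with CL097, and over all tested genes 25.8% were called lower and 25.9% higher. Erythroid markers, 5 of 8 of which were in the data, summed to 26.8 CPM in unstimulated library 1 against 795 and 929 CPM in libraries 2 and 3, and to 46.6 CPM against 1144 and 2005 CPM with CL097. Of the 3 tested erythroid genes 2 were called higher and 0 lower. Monocyte and macrophage markers, 6 of 7 in the data, ran from 98.1 to 389 CPM without and from 69.3 to 220.0 CPM with CL097, again lowest in number 1. Among these 6 genes 2 were called lower and 0 higher. Summed T cell markers (6 of 7 in the data) lay between 46.3 and 90.9 CPM, and the T cell receptor genes Cd3d, Cd3e and Cd3g did not pass the filter on low values. The other 3 T cell genes were tested, and 1 was called higher. Plasma cell markers (4 of 5 in the data) summed to 362, 375 and 390.1 CPM in the unstimulated libraries 1, 2 and 3 and to 147, 163 and 161 CPM in the CL097 libraries, with 3 of 4 genes called lower. Neutrophil markers (7 of 7) summed to 4.01, 11.6 and 13.3 CPM without and 4.08, 7.15 and 10.6 CPM with CL097 (2 of 5 tested genes called lower), and NK cell markers (6 of 6) to 6.43, 4.21 and 5.40 CPM and 3.56, 3.00 and 4.37 CPM (2 of 3 tested genes called lower). The part of these changes in the results below was not tested. In bulk RNA, fewer cells of a type and less RNA per cell cannot be told apart.

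Upon stimulation with CL097, 16 of the 20 cytosolic synthetase genes (80.0%) were called higher and 0 were called lower, by limma's moderated test with the replicate number as a block (Benjamini-Hochberg adjusted p under 0.05 over all 11844 tested genes and an absolute log2 fold change, log2FC, over 0.5). Over all tested genes 25.9% were called higher and 25.8% lower, and the median log2FC was 0.002 with a median SE of 0.12. Of the cytosolic genes 2, Qars and Vars, were lower at an adjusted p under 0.05 with changes below the fold limit. The median of the cytosolic genes was 0.95, and 0.95, 0.95 and 0.86 in pairs 1, 2 and 3. Of the mitochondrial genes 5 of 16 (31.2%, near the share over all tested genes) were called higher, 1 was called lower and 10 were not called, with a median log2FC of 0.30. All 36 genes passed the filter of 0.5 CPM in at least 3 libraries. The CL097 libraries lay above all unstimulated ones in 17 cytosolic and 8 mitochondrial genes (33.4% of all tested genes), and below all of them in 2 and 1 (32.4% of all tested genes).

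**Figure D1:**
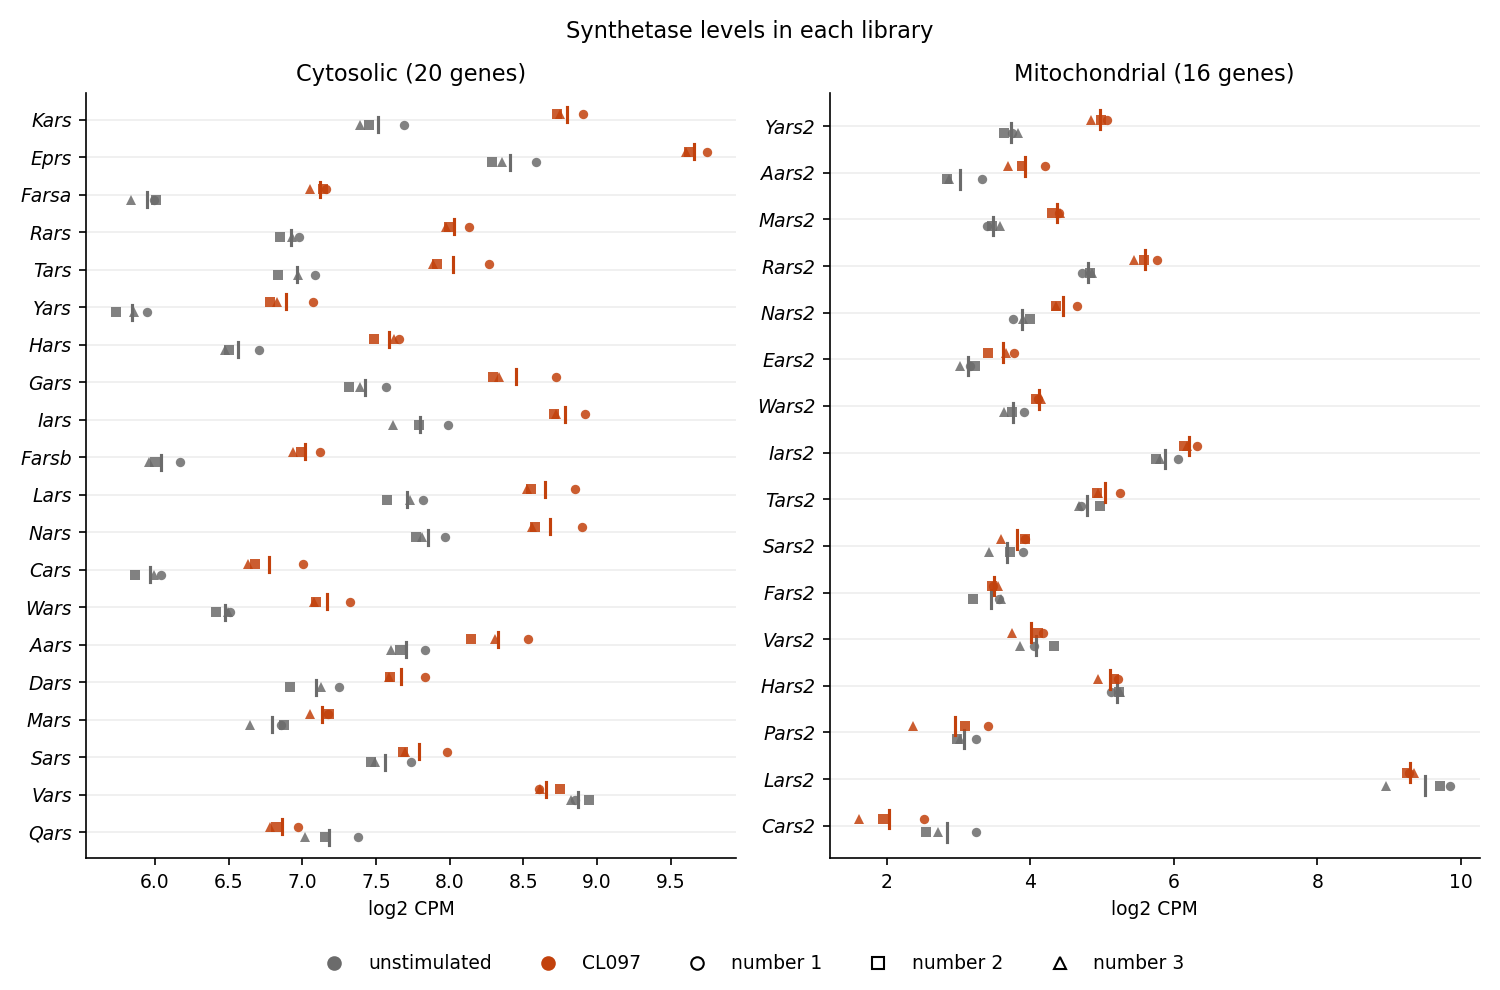
Deposited log2 CPM of the 20 cytosolic (left) and 16 mitochondrial (right) synthetase genes in each of the 6 libraries, in order of log2FC; grey is unstimulated, orange is CL097, the symbol gives the library number and the bar the mean of 3. The orange points lie apart from and to the right of the grey ones in 17 cytosolic and 8 mitochondrial genes, and the unstimulated points of Lars2 are spread on both sides of its CL097 points.

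Summed over the 20 cytosolic genes, the transcripts took 3566, 3177 and 3160 CPM in the unstimulated libraries 1, 2 and 3, and 6187, 5366 and 5335 CPM in the CL097 libraries. Every CL097 sum lay above every unstimulated sum. All 16 mitochondrial genes summed to 1213, 1114.5 and 769 CPM without and to 1022, 966 and 988 CPM with CL097, and the groups overlapped. Lars2 alone held 499 to 925 CPM. The 15 mitochondrial genes other than Lars2 summed to 288, 278 and 269.8 CPM without and to 400.2, 356 and 337 CPM with CL097, without overlap, a sum chosen after the values were seen.

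The largest change of a cytosolic gene was that of Kars, lysyl-tRNA synthetase (chromosome 8, 111993443 to 112011323, minus strand). Kars was at 206, 175 and 168 CPM in the unstimulated libraries 1, 2 and 3 and at 479.7, 425 and 431 CPM in the CL097 libraries. The libraries of the conditions were far apart, with the lowest CL097 value above the highest unstimulated one by more than the range of either group (log2FC 1.28, SE 0.06, adjusted p = 3.23e-06, limma). Eprs, which fuses glutamyl- and prolyl-tRNA synthetase in 1 protein (chromosome 1, 185363044 to 185428360, plus strand), came next. Eprs was at 383, 312 and 327 CPM in the unstimulated libraries 1, 2 and 3 and at 858, 789 and 778 CPM in the CL097 libraries. The groups did not overlap, and the level rose 2.38-fold (log2FC 1.25, SE 0.06, adjusted p = 3.68e-06). Rars, arginyl-tRNA synthetase (chromosome 11, 35808381 to 35834506, minus strand), is a further member of the group called higher. Rars was at 126, 116 and 122 CPM in the unstimulated libraries 1, 2 and 3 and at 279.8, 255 and 251 CPM in the CL097 libraries. All 3 CL097 libraries lay above all unstimulated ones (log2FC 1.11, SE 0.06, adjusted p = 6.48e-06).

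Farsa and Farsb, the alpha and beta subunits of phenylalanyl-tRNA synthetase, had similar levels and both rose. Farsa was at 63.9, 64.5 and 57.1 CPM in the unstimulated libraries 1, 2 and 3 and at 143, 141 and 133 CPM in the CL097 libraries. Farsb was at 72.0, 64.0 and 62.3 CPM in the unstimulated libraries 1, 2 and 3 and at 139, 127 and 123 CPM in the CL097 libraries. Both genes were higher in all CL097 libraries, with a log2FC of 1.17 (SE 0.07) and 0.97 (SE 0.07). In unstimulated cells the subunits lay at 33.9 ± 2.24 and 32.5 ± 2.52 CPM per kb of transcript, and with CL097 at 76.1 ± 3.05 and 63.7 ± 4.12 CPM per kb (SD, n = 3).

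The promoters of the synthetase genes were read from RefSeq (GRCm38.p6), 250 bases before to 50 bases after the RefSeq start of each gene, and 26 of the 36 genes had an entry: 12 cytosolic and 14 mitochondrial. A RefSeq start can differ from the gene start in GENCODE M21. It lies inside the GENCODE gene for Aars, Tars2, Qars, Fars2, Ears2 and Yars, among others. Matches and their positions refer to the RefSeq start. The amino acid response element, searched as TGATGNAA on both strands, was present in 5 of the 12 cytosolic promoters and in 0 of the 14 mitochondrial ones, against 3.97% of 32851 promoters of that length. The 5 genes were Yars, Gars, Aars, Iars and Tars, which charge tyrosine, glycine, alanine, isoleucine and threonine. A window of 30 bases around a match is shown for each of these 5 genes, which were picked by the match itself. The match is in capitals and positions are counted from the start as base 1. Aars held a further match at bases -112 to -105, which is not shown.
Yars, bases 4 to 11 after the start (chr4:129189895-129189924, plus strand): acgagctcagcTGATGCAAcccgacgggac
Gars, bases -30 to -23 (chr6:55037960-55037989, plus strand): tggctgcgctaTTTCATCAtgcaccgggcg
Aars, bases 10 to 17 (chr8:111033840-111033869, plus strand): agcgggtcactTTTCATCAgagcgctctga
Iars, bases 8 to 15 (chr13:49682126-49682155, plus strand): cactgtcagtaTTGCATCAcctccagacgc
Tars, bases -15 to -8 (chr15:11399655-11399684, minus strand): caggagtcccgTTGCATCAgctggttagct
The match in Yars read in the direction of the gene, as TGATGCAA, and the other matches shown read on the opposite strand. A match is a description of the letters and not a measured binding site.

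The upstream 250 bases of Gars are shown as a promoter with the amino acid response element, which is in capitals, and those of Yars2 as the mitochondrial gene with the largest increase, which had no match to it.
Gars upstream (chr6:55037751-55038000, plus strand): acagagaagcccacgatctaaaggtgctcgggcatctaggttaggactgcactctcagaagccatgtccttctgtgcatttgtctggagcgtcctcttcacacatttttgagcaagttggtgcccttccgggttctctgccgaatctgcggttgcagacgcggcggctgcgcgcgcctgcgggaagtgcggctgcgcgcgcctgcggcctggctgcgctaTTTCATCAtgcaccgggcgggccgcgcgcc
Yars2 upstream (chr16:16302715-16302964, plus strand): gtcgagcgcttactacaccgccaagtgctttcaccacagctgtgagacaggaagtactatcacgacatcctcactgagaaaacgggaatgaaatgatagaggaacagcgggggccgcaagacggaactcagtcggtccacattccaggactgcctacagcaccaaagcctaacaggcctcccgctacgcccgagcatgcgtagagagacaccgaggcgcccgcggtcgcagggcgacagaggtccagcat
The E-box CACGTG, a motif bound by MYC and related factors, was present in 4 of 12 cytosolic promoters (Aars, Farsb, Iars and Tars) and in 1 of 14 mitochondrial ones (Ears2), against 7.15% of all promoters. The palindrome reads the same on both strands and did not overlap the matches to TGATGNAA. Aars, Iars and Tars thus held both motifs. The box CCAAT was found in 6 of 12 and 6 of 14 promoters, against 37.4% of all, and the ETS motif CCGGAAG in 4 of 12 and 4 of 14, against 8.86% of all. The 5 other motifs were seen in 0 to 2 promoters of a class: the gamma-activated site TTCNNNGAA (Aars, Kars, Nars2), the interferon-stimulated core GAAANNGAA (Qars), the kappaB motif GGGNNTTCC (Iars2, Wars2), TATAAA (Farsa, Aars2, Tars2) and the NRF1 motif GCGCATGCG (Vars2, Wars2). Their shares over all promoters were 8.30%, 8.56%, 5.82%, 13.6% and 1.75%.

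The 5 genes with the amino acid response element shown above were all called higher, with log2FC between 0.63 and 1.06 and a median of 1.02. Of the 7 cytosolic genes with a promoter entry and no match, 5 were called higher, with log2FC between -0.32 and 1.28 and a median of 0.97. Over all 20 cytosolic genes 80.0% were called higher, and over all tested genes 25.9%. The difference between these groups of genes was not tested. Tars rose from 125 ± 10.8 to 262 ± 40.1 CPM (SD, n = 3), and Yars from 57.7 ± 4.25 to 119 ± 13.5 CPM. Gars, whose product serves both compartments, rose from 172 ± 15.8 to 352 ± 60.2 CPM. Iars rose from 224 ± 29.3 to 441 ± 36.8 CPM. These 4 genes had log2FC of 1.06, 1.05, 1.02 and 0.98. Aars, with the element and an E-box, had the smallest change of the 5: Aars was at 228, 203 and 194 CPM in the unstimulated libraries 1, 2 and 3 and at 371, 283 and 316 CPM in the CL097 libraries. The CL097 libraries were still all above the unstimulated ones (log2FC 0.63, SE 0.07, adjusted p = 1.70e-04). Aars overlaps Exosc6 on the same strand by 1326 bases in the GENCODE M21 annotation, and no source used here says how the shared bases were counted. Iars shares 1656 bases at 96.0% identity with the processed pseudogene Gm4849, so its level is uncertain to the extent that such reads were shared.

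The remaining genes called higher were Hars, Lars, Nars, Cars, Wars and Dars, for histidine, leucine, asparagine, cysteine, tryptophan and aspartate. Their log2FC were 1.03, 0.94, 0.83, 0.80, 0.69 and 0.58, with SE between 0.06 and 0.08, and each had CL097 libraries above all unstimulated ones. Lars, which in human cells is also a leucine sensor for the mTORC1 kinase, rose from 209 ± 17.7 to 402 ± 51.9 CPM (SD, n = 3). Wars, known in human cells as a gene induced by interferon gamma, rose from 88.9 ± 3.09 to 144 ± 14.3 CPM. Nars rose from 231 ± 16.5 to 412 ± 56.5 CPM, Cars from 62.6 ± 3.87 to 110.0 ± 15.9 CPM and Hars from 94.6 ± 8.31 to 192 ± 12.0 CPM. Dars had the smallest log2FC of the called cytosolic genes, and rose from 137 ± 15.7 to 205 ± 20.1 CPM. Of the genes not called, the closest to the fold limit of 0.5 were Ears2 at 0.48 among the mitochondrial and Mars at 0.34 among the cytosolic ones.

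For 4 cytosolic genes the change stayed below the fold limit. Vars, valyl-tRNA synthetase (chromosome 17, 35000987 to 35016322, plus strand), was the cytosolic gene with the highest level per kb of transcript in unstimulated cells. Vars was at 461, 493 and 454 CPM in the unstimulated libraries 1, 2 and 3 and at 389, 429 and 391 CPM in the CL097 libraries. The CL097 values were all below the unstimulated ones by a small margin (log2FC -0.22, SE 0.05, adjusted p = 0.00953, below the fold limit). Qars, glutaminyl-tRNA synthetase (chromosome 9, 108507706 to 108515941, plus strand), was at 167, 142 and 129 CPM without and 126, 113 and 110.0 CPM with CL097. Its groups did not overlap and the CL097 libraries were lower (log2FC -0.32, SE 0.07, adjusted p = 0.00420, below the fold limit). Mars, methionyl-tRNA synthetase, was at 116, 118 and 100.2 CPM without and 144, 145 and 133 CPM with CL097. Its CL097 libraries lay above the unstimulated ones (log2FC 0.34, SE 0.06, adjusted p = 0.00258, below the fold limit), and it overlaps Ddit3 on the opposite strand by 68 bases. Sars, seryl-tRNA synthetase, was at 213, 177 and 179.9 CPM without and 253, 206 and 208 CPM with CL097. It was higher in each of the 3 pairs, but unstimulated library 1 lay above CL097 libraries 2 and 3 (log2FC 0.22, SE 0.06, adjusted p = 0.0113, below the fold limit).

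**Figure D2:**
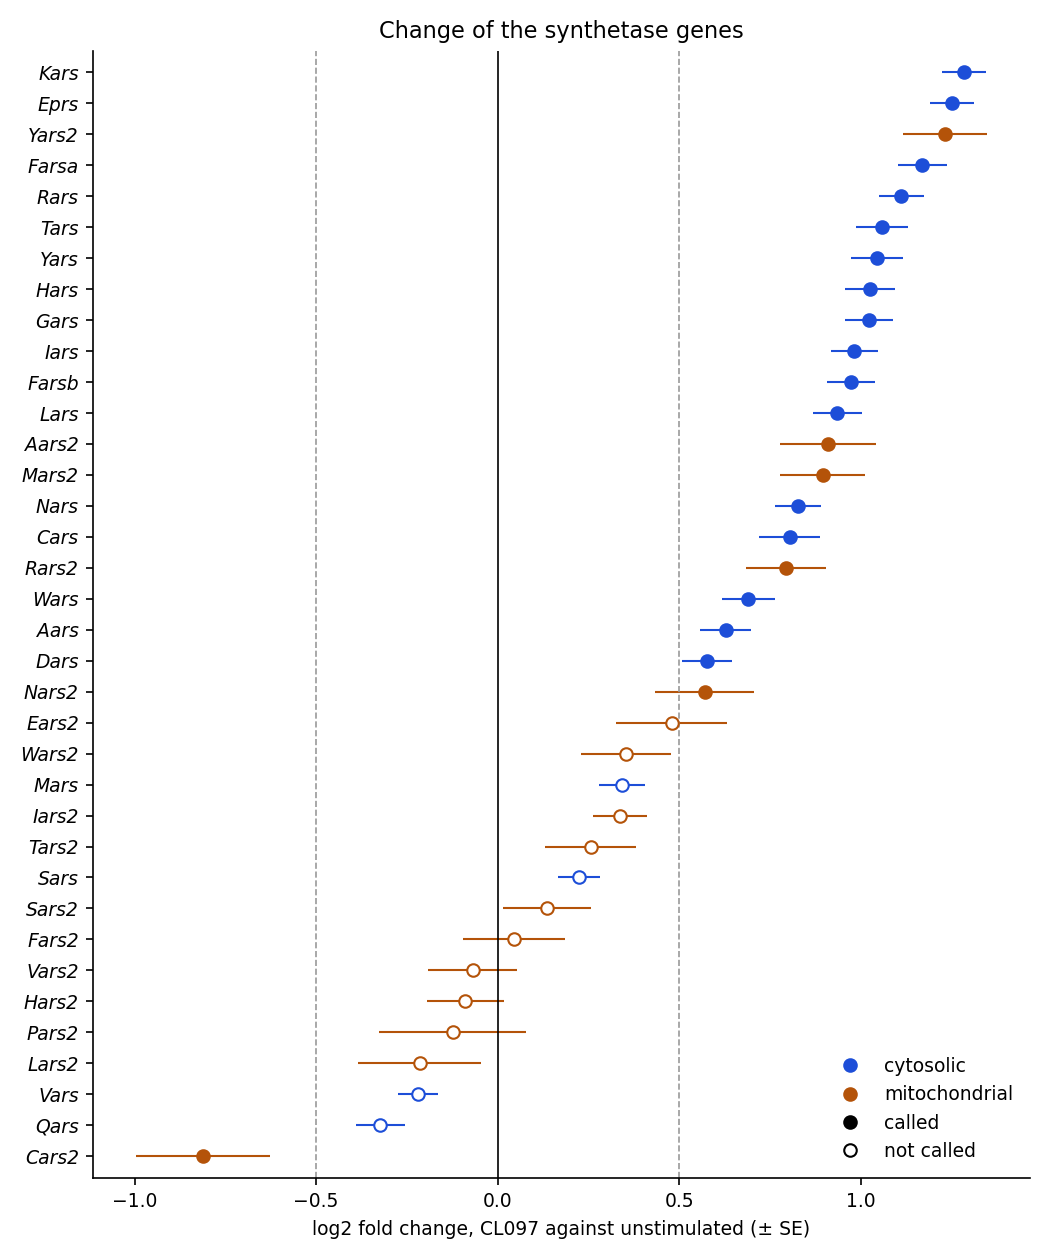
log2FC of CL097 against unstimulated with its SE for the 36 synthetase genes, cytosolic in blue and mitochondrial in brown; filled points were called, open ones were not, and the dashed lines mark the fold limit of 0.5 in each direction. Called cytosolic genes run from 0.58 to 1.28, 5 mitochondrial genes lie among them between 0.57 and 1.23, and Cars2 at -0.81 was called lower.

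The cytosolic synthetases include 8 enzymes of the multisynthetase complex, a particle in which Eprs, Iars, Lars, Qars, Mars, Kars, Rars and Dars are held together by 3 scaffold proteins. Of the 8 enzymes 6 were called higher, with a median log2FC of 0.96, and of the 12 enzymes outside the complex 10 were called higher, with a median of 0.90. The complex held genes from both ends of the range, Kars at 1.28 and Qars at -0.32. Of the scaffold genes, Eef1e1 (AIMP3) rose from 25.3 ± 3.30 to 133 ± 1.44 CPM (log2FC 2.40, SE 0.09, adjusted p = 1.87e-06, n = 3 per group) and Aimp2 from 32.1 ± 2.91 to 93.6 ± 3.47 CPM (log2FC 1.55, SE 0.08, adjusted p = 5.88e-06). Aimp1, the third, was at 62.1 ± 7.60 without and 81.2 ± 8.63 CPM with CL097 (log2FC 0.39) and was not called. By enzyme fold, 6 of 9 cytosolic class I and 9 of 10 class II genes were called higher, with medians of 0.80 and 1.00, leaving aside Eprs, which joins an enzyme of each class. The medians of the mitochondrial genes were 0.35 for class I (3 of 9 higher, 1 lower) and 0.14 for class II (2 of 7 higher), shares of 33.3% and 28.6% that are near the 25.9% of all tested genes.

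Among the mitochondrial genes, Yars2, tyrosyl-tRNA synthetase (chromosome 16, 16302965 to 16309640, plus strand), had the largest increase. Yars2 was at 13.5, 12.4 and 14.2 CPM in the unstimulated libraries 1, 2 and 3 and at 33.6, 31.6 and 28.9 CPM in the CL097 libraries. The CL097 libraries were above the unstimulated ones in every comparison (log2FC 1.23, SE 0.12, adjusted p = 7.64e-05, limma). Mars2, methionyl-tRNA synthetase (chromosome 1, 55237177 to 55248470, plus strand), was at 10.6, 11.03 and 12.0 CPM without and 21.2, 19.8 and 21.3 CPM with CL097. Aars2, alanyl-tRNA synthetase (chromosome 17, 45506841 to 45520843, plus strand), was at 10.1, 7.18 and 7.33 CPM without and 18.5, 14.8 and 12.9 CPM with CL097. Neither gene had overlapping groups, and their log2FC were 0.90 (SE 0.12) and 0.91 (SE 0.13). Rars2, arginyl-tRNA synthetase, rose from 28.0 ± 1.41 to 48.7 ± 5.49 CPM (log2FC 0.79, SE 0.11, adjusted p = 5.63e-04). Nars2, asparaginyl-tRNA synthetase, rose from 14.8 ± 1.23 to 22.1 ± 2.59 CPM (log2FC 0.57, SE 0.14, adjusted p = 0.00798), but this call was lost without number 1, where the log2FC was 0.41, and without the filter on low values (adjusted p = 0.0834).

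Cars2, mitochondrial cysteinyl-tRNA synthetase, which in mice also makes cysteine persulfides (chromosome 8, 11513977 to 11550783, minus strand), was the only synthetase gene called lower with all libraries in the fit. Cars2 was at 9.52, 5.86 and 6.59 CPM in the unstimulated libraries 1, 2 and 3 and at 5.72, 3.87 and 3.07 CPM in the CL097 libraries. The values were low and CL097 library 1 came close to the lowest unstimulated one, but the groups did not overlap and each pair showed a decrease (log2FC -0.81, SE 0.19, adjusted p = 0.00647). The gene overlaps Naxd on the opposite strand by 984 bases, and no source used here states the strand setting of the counting.

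Lars2, mitochondrial leucyl-tRNA synthetase (chromosome 9, 123366927 to 123462666, plus strand), stood apart from the other mitochondrial genes by its level. Lars2 was at 925, 837 and 499 CPM in the unstimulated libraries 1, 2 and 3 and at 622, 610.1 and 651 CPM in the CL097 libraries. Unstimulated libraries 1 and 2 were the highest and unstimulated library 3 the lowest of the 6, so the groups overlapped, and the gene was not called (log2FC -0.21, SE 0.17, adjusted p = 0.295). Without number 3 it was called lower, with a log2FC of -0.51. Per kb of transcript, Lars2 had the highest level of the synthetases in unstimulated cells, at 194 ± 57.7 CPM per kb (SD, n = 3). Vars followed at 113 ± 5.11 and Kars at 91.2 ± 10.1 CPM per kb. Stretches shared with other transcripts were searched only from 100 bases at 95% identity. Shorter shared stretches would be missed, and the level of Lars2 is uncertain to that extent. The other 15 mitochondrial genes lay between 0.991 CPM per kb for Mars2 and 15.0 CPM per kb for Rars2, below every cytosolic gene, the lowest of which was Cars at 19.4 ± 1.20 CPM per kb. With CL097 the order began with Kars at 222 ± 15.0, Eprs at 165 ± 8.76 and Lars2 at 161 ± 5.43 CPM per kb, of which Eprs and Lars2 differed by less than their spread.

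The other mitochondrial genes were not called. Ears2 for glutamate, Wars2 for tryptophan and Iars2 for isoleucine had CL097 libraries above all unstimulated ones, with log2FC of 0.48, 0.35 and 0.34 below the fold limit. Wars2 went from 13.6 ± 1.35 to 17.4 ± 0.401 CPM (SD, n = 3) and Iars2 from 59.1 ± 6.77 to 74.4 ± 4.84 CPM. The transcript of Iars2 shares 2034 of its 5471 bases with Rab3gap2 on the opposite strand. The strand setting of the counting is not known, so the level and change of Iars2 are uncertain to that extent. Ears2 was at 8.93, 9.43 and 8.11 CPM without and 13.7, 10.6 and 12.7 CPM with CL097, and was called higher without number 2 (log2FC 0.63). The groups overlapped in Tars2 (0.26), Sars2 (0.14), Fars2 (0.05), Vars2 (-0.07), Hars2 (-0.09) and Pars2 (-0.12), with SE between 0.10 and 0.20. Their mean levels without CL097 ran from 8.50 CPM for Pars2 to 36.9 CPM for Hars2. With CL097 Tars2 was at 33.2 ± 4.40 CPM, Sars2 at 14.2 ± 1.80 CPM, Fars2 at 11.3 ± 0.352 CPM, Vars2 at 16.3 ± 2.46 CPM and Pars2 at 8.13 ± 2.80 CPM. Hars2 lies head to head with the cytosolic gene Hars, and the annotated genes overlap by 198 bases on opposite strands. Hars2 was at 34.9, 37.6 and 38.1 CPM without and 37.5, 35.95 and 30.9 CPM with CL097, while Hars was at 104, 90.7 and 89.0 CPM without and 202, 179 and 197 CPM with CL097. The groups overlapped for Hars2, while the CL097 libraries of Hars were all above the unstimulated ones.

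The cytosolic and the mitochondrial gene of the same amino acid were set side by side in 17 comparisons (phenylalanine counts once for each subunit, and Eprs was set against Ears2 and against Pars2). The difference of their log2FC, cytosolic minus mitochondrial, was positive in 13 of 17 comparisons, in all 3 pairs of libraries each time, with a median over the 17 of 0.65. It was largest for cysteine, at 1.62 (SE 0.10), with 1.70, 1.41 and 1.74 in pairs 1, 2 and 3. For proline, Eprs against Pars2, it was 1.38 (SE 0.28). For histidine it was 1.11 (SE 0.18). In these comparisons the cytosolic gene rose and the mitochondrial gene fell or was not called. For leucine the difference of 1.15 (SE 0.37) was uneven, with 1.61, 1.43 and 0.41 in the 3 pairs. The difference was negative in all 3 pairs for methionine at -0.55 (SE 0.07), alanine at -0.28 (SE 0.14) and tyrosine at -0.19 (SE 0.07). For valine it was -0.15 (SE 0.11), with -0.37, 0.02 and -0.11 in the 3 pairs. Small differences moved with single pairs, for alanine to -0.14 without number 2. With 3 pairs the exact sign-flip permutation test cannot give a two-sided p below 0.25, and after Benjamini-Hochberg adjustment over the 17 comparisons the smallest p was 0.266, so none of these differences could pass 0.05.

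**Figure D3:**
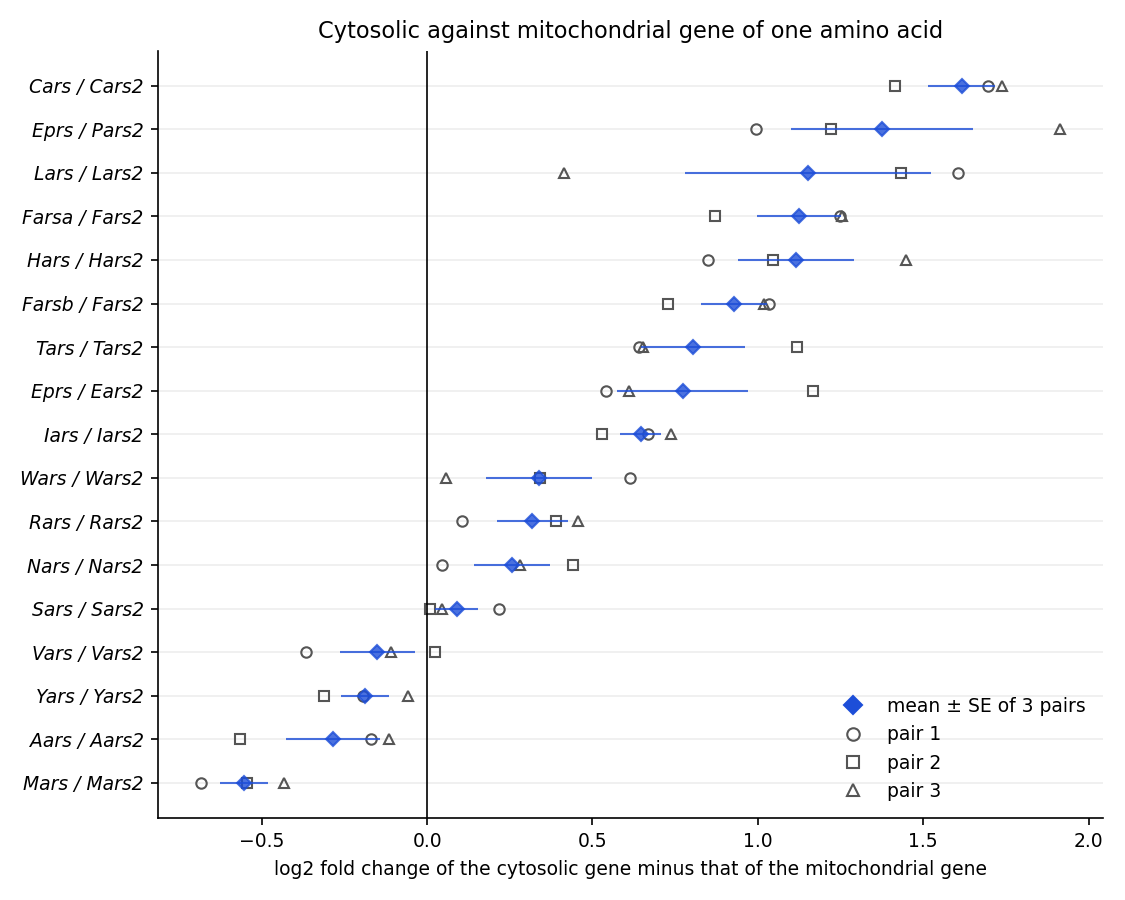
Difference between the log2FC of the cytosolic and of the mitochondrial gene for one amino acid, as the mean with SE (blue) and in each of the 3 pairs of libraries (grey). The difference lies to the right of 0 in all pairs for 13 comparisons, from 0.09 for serine to 1.62 for cysteine, and to the left in all pairs for methionine, alanine and tyrosine.

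Per kb of transcript, the cytosolic gene was more abundant than its mitochondrial counterpart in every comparison but leucine. In unstimulated cells the ratio of the levels ran from 0.272 for Lars against Lars2 to 38.2 for Mars against Mars2, with a median of 6.52, and with CL097 the median was 12.2. The length of Mars2 in this annotation, 11294 bases, enters the highest ratio. For cysteine the ratio went from 5.05 to 15.4, and for tyrosine from 2.34 to 2.06.

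Other genes that supply or use charged tRNA were counted from lists. Of 20 tested genes of tRNA processing and export 15 were higher and 2 lower (75.0% and 10.0%, against 25.9% and 25.8% of all tested genes), with a median log2FC of 0.95. Rpp25, Rpp38 and Rpp40, protein subunits of ribonuclease P, which trims the front of precursor tRNA, had the largest changes, with log2FC of 2.90, 2.03 and 1.88. Rpp25 was low, at 0.186 ± 0.130 CPM without and 1.01 ± 0.0386 CPM with CL097 (SE of its log2FC 0.69). All its unstimulated values were under the filter of 0.5 CPM, so it passed only through the CL097 libraries, where it was high. Its call, which this selection favours, is among the 15. Of 41 tested tRNA modification genes 25 were higher and 2 lower (61.0% and 4.88%), with a median of 0.67. The pseudouridine synthase Pus7 rose from 56.0 ± 4.30 to 317 ± 22.8 CPM (SD, n = 3), Trmt61a, a tRNA methyltransferase subunit, from 14.3 ± 0.586 to 59.4 ± 4.87 CPM, and Qtrt1, a subunit of the enzyme that inserts queuine, from 11.6 ± 2.34 to 33.9 ± 2.13 CPM. Their log2FC were 2.50, 2.06 and 1.56.

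Of 6 genes for the charging and use of selenocysteine, an amino acid made on its own tRNA, 5 were higher and 0 lower (83.3%, against 25.9% higher over all tested genes; 1 was not called), with a median log2FC of 0.64. Sephs2, which makes selenophosphate, rose from 55.2 ± 1.46 to 150.4 ± 9.37 CPM (SD, n = 3), Sepsecs, which converts the charged tRNA, from 9.49 ± 1.01 to 18.4 ± 2.72 CPM, and Eefsec, its elongation factor, from 31.2 ± 3.66 to 49.2 ± 5.32 CPM. Of 3 tested genes of the mitochondrial amidotransferase and of initiator tRNA formylation, 2 were higher (66.7%), Mtfmt (log2FC 0.99) and Qrsl1 (0.54).

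Genes of the amino acid response other than synthetases were higher in 18 of 31 tested cases and lower in 1 (58.1% and 3.23%, against 25.9% and 25.8% of all tested genes), with a median log2FC of 0.74. The largest changes were those of Cbs, the first enzyme from homocysteine to cysteine, from 0.408 ± 0.296 to 1.80 ± 1.01 CPM (log2FC 2.22), of Ddit4, an inhibitor of mTORC1, which fell from 34.6 ± 12.0 to 7.59 ± 1.42 CPM (-2.15), and of Chac1, a glutathione-degrading enzyme, from 3.62 ± 0.559 to 13.8 ± 4.12 CPM (1.91). Cbs was low, at 0.259, 0.75 and 0.217 CPM in the unstimulated libraries 1, 2 and 3 (SE of its log2FC 0.54). It passed the filter of 0.5 CPM only with the help of its CL097 libraries, where it was high, and its call is among the 18. Atf4 itself, named after its value was seen, rose from 257 ± 6.47 to 406 ± 36.7 CPM (SD, n = 3; log2FC 0.65, SE 0.07, adjusted p = 2.09e-04). A transcript level does not show the translation of Atf4. A list of 7 tested genes around GCN2 also held other kinases of initiation factor eIF2, so its members are not all sensors of amino acids. Of these 7 genes Eif2s1, the alpha subunit of eIF2 (1.33), and Gcn1l1, a partner of GCN2 (0.66), were higher. Eif2ak3, which encodes the eIF2 kinase PERK, was lower (-1.68). The share called higher, 28.6%, is near the 25.9% of all tested genes, and 14.3% were lower against 25.8%. Eif2ak4, which encodes GCN2 and is also named after its value was seen, was not called (log2FC 0.36).

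**Figure D4:**
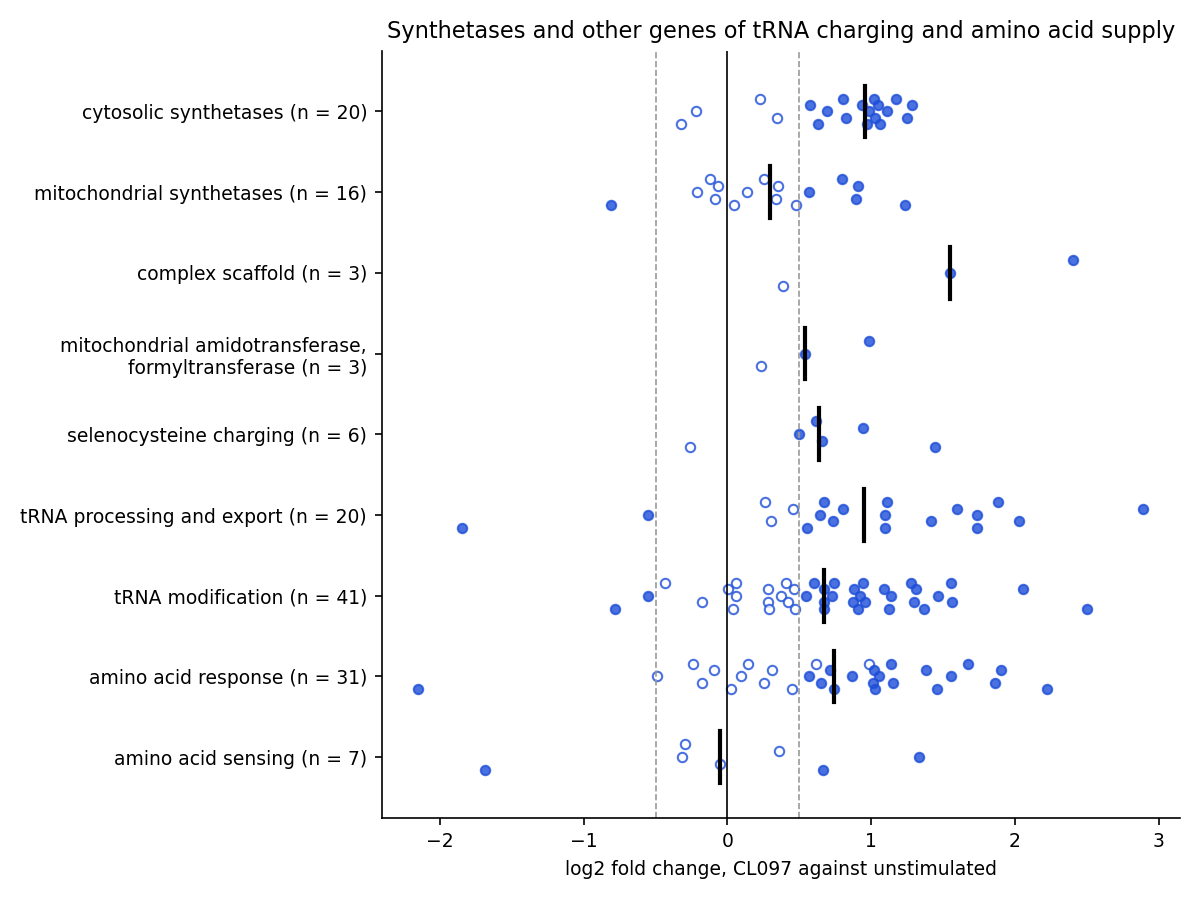
log2FC of every tested gene of the synthetase classes and of 7 lists of related genes, with called genes filled, others open, the median of each list as a black bar and the fold limit of 0.5 as dashed lines. The cytosolic synthetases and the tRNA processing genes have the same median of 0.95, and the mitochondrial synthetases lie at 0.30. The 7 genes marked amino acid sensing, which include eIF2 kinases other than GCN2, lie at -0.05.

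Libraries of number 1 differed from the others in both conditions. Among the cytosolic genes, number 1 lay above numbers 2 and 3 in 17 of 20 genes without and in 18 of 20 with CL097, by a median of 0.19 and 0.22 on the log2 scale, and among the mitochondrial genes in 7 and 11 of 16. The share over all tested genes was not counted, so these counts do not show a trait of the synthetases. The erythroid and monocyte markers given above were lowest in the same libraries, and the part of these cells in the differences between numbers was not tested. Nor was the part of the component that the deposited values share within a number. With number 1 left out of both conditions, 16 of 20 cytosolic genes were called higher with a median log2FC of 0.92, and 4 of 16 mitochondrial genes with a median of 0.28, against 0.95 and 0.30 over all 3 pairs.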

How the data were processed

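RNA of 6 B cell libraries, 3 per condition, was sequenced after poly(A) selection with a stranded kit. The authors trimmed reads (Trim Galore 0.6.5, FastQC 0.11.7), aligned them to mm10 (STAR 2.6.1a), counted them per gene (featureCounts, Subread 2.0.1) and deposited log2 CPM from limma's voom with quantile normalization, per the submitters' processing notes and the methods, for 23420 symbols. Annotation and strand setting of the counting: not given in the sources used here. Depth is unknown. Of 17935 genes that vary, 2655 to 3108 had identical values in both libraries of a number, against 347 to 396 across numbers, so levels carry a component shared by a number, which alters the SD within a group and cancels in the pairs.

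Genes with at least 0.5 CPM in at least 3 libraries (11844) were fitted in limma 3.58.1 (R 4.3.3), two-sided, with the replicate number as a block, a variance trend and no pseudocount. The labels speak of 3 mice without tying numbers to them. Deviations from group means correlated at 0.568, 0.326 and 0.458 within numbers 1, 2 and 3, over the limit of 0.1, so libraries of equal number were treated as pairs. Across numbers, unstimulated 2 with CL097 3 (0.209) and unstimulated 3 with CL097 2 (0.172) were over it too, and the other 4 pairs were negative. The component shared by a number can itself give such correlations, so they do not show that a number marks a mouse. No label states separate cultures, so p-values measure the spread between these samples, which may be technical. Members, lists and motifs were chosen with earlier results of these data known. All 36 members are named, and of each other list at most the 3 called genes with the largest absolute log2FC, beside Aimp1, Atf4 and Eif2ak4, added after their values were seen. Coordinates and lengths (longest APPRIS principal transcript) are from GENCODE M21. Some items, and a list that holds one, are not reported here. The fit was tested on simulated data. Alternatives were no block, no filter, a pseudocount of 1 CPM, cyclic loess, equal medians, no variance trend, robust variances and leaving out each number.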

Additional observations from a re-analysis of the deposited data

How the results depend on the processing

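Without the replicate number as a block, 2837 genes were higher and 2799 lower over all genes, against 3064 and 3057 with it, and the calls of the 36 synthetase genes were the same. The 16 cytosolic calls were kept in all 10 alternatives, gene by gene, and the sign of all 20 cytosolic genes too. The count of mitochondrial genes called higher was 4 to 6 and called lower 1 to 2 with a number left out, the 2 being Cars2 and Lars2 without number 3. Nars2 lost its call without the filter (log2FC 0.57, adjusted p = 0.0834, limma) and without number 1 (0.41), Ears2 gained one without number 2 (0.63) and Lars2 a lower one without number 3 (-0.51). Of the differences between the genes of an amino acid, none changed sign in the alternatives run, and 5 moved by over 1.5 times with a number left out: alanine from -0.28 to -0.14 and asparagine from 0.26 to 0.16 without number 2, tryptophan from 0.34 to 0.20 and serine from 0.09 to 0.03 without number 1, and valine from -0.15 to -0.04 without number 1 and -0.24 without number 2. The sign turned in 4 mitochondrial genes that were not called, whose log2FC with a number left out ran from -0.062 to 0.111 for Fars2, from -0.165 to 0.0085 for Vars2, from -0.184 to 0.018 for Hars2 and from -0.271 to 0.144 for Pars2. The cause was not tested, and these fits hold 4 libraries. The depth of the libraries is unknown, so the limit it sets on low genes such as Cars2, Aars2 and Pars2 was not measured.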
